A study of Mus musculus with 6 samples.

Results

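Il18 and 8 genes of its own or the related interleukin-1 pathway were followed in RNA from mouse retina. All 19 array probes that the platform annotation assigns to them were used. The 9 genes, of 19057 named on the array, are Il18, Il18bp, Il18r1, Il1b, Il1rn, Casp1, Casp4, Nlrp3 and Pycard. They were selected on results of these arrays: Il18 had been seen to differ between the groups, and the other genes were grouped around it. Their differences between knockout and wild-type are therefore given as a description, with SEs and no p-values. The study hybridised 3 wild-type samples (source name Jax WT) and 3 samples from Vldlr knockout mice to Illumina BeadChips, 1 array per sample. Both groups carry the same background strain entry, JAX, and the labels give no allele, age, sex or treatment. The product of Vldlr is a lipoprotein receptor, and the comparison asks which transcripts differ in retinas without it. The labels do not state whether each sample is a separate mouse, so SEs and p-values reflect only how these 6 samples vary, and that variation could be technical.

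Interleukin-18 is a cytokine of the interleukin-1 family. It is made as an inactive precursor that caspase-1 cuts inside the inflammasome, a complex in which a sensor such as NLRP3 recruits the caspase through the adaptor that Pycard encodes. In the eye, IL-18 has been studied chiefly for its part in abnormal vessel growth, and IL-1β for inflammation. An mRNA signal says nothing of how much precursor is cut.

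The promoters of Il18, Il1b and Casp4 are shown because Il18 was the member whose signal differed, Il1b the related cytokine that was not detected, and Casp4 the caspase gene with matches to the NF-kB motif. The sequences are from RefSeq, build GRCm38.p6, and cover the 250 bases before the transcript start. All 9 genes had an entry, 15 in all. Il18 lies at chr9:50554450-50554699 on the plus strand, Il1b at chr2:129371140-129371389 on the minus strand and Casp4 at chr9:5308599-5308848 on the plus strand. Capitals mark motif matches.
Il18: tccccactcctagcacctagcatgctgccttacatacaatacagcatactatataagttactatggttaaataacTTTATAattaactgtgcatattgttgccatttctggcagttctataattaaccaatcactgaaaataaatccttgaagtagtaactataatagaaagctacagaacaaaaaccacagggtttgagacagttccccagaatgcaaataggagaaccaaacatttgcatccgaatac
Il1b: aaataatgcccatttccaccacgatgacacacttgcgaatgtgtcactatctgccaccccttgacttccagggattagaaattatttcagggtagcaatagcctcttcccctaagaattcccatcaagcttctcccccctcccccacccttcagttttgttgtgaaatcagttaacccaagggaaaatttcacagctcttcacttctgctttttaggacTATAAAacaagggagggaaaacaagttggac
Casp4: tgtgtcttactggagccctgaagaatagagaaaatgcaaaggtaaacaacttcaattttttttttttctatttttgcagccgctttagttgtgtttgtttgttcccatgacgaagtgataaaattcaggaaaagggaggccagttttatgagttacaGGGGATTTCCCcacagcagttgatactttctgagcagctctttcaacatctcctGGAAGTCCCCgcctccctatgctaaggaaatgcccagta
Both strands were searched for the core promoter motif TATAAA, for the PU.1 core letters GAGGAA, for the AP-1 site written TGANTCA, for the STAT motif spelled TTCNNNGAA and for the NF-kB consensus. The Il1b promoter held TATAAA on its own strand 31 to 26 bases before the start, and the Il18 promoter held it only on the opposite strand, 175 to 170 bases before. Of all 32851 promoters in the table, 12.4% held TATAAA on either strand. The NF-kB motif, found in 7.25% of promoters, matched in Casp4 at overlapping positions from 93 to 83 bases before the start and again at 39 to 30. PU.1, AP-1 and STAT had 0 matches in these 3 windows and are found in 23.3%, 6.75% and 7.02% of promoters. A match is a description of letters and no evidence of binding.

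Each array carried 45281 probes, of which 41.3% to 46.3% had a detection p under 0.05 and are called detected. The detection p compares a probe with the negative controls of its array. Median raw intensity lay between 63.9 and 75.9. After background correction and quantile normalization, 19921 probes detected on at least 3 of 6 arrays were tested. By limma 435 of them (2.18%) passed an adjusted p of 0.05, and 130 of these (0.653% of those tested) were higher in knockout. With 1 array left out the higher calls numbered 33 (without knockout replicate 2) to 125 (without wild-type replicate 3). The number of arrays, 3 per group, limits the precision. Vldlr, the targeted gene, was at 11.31, 11.33 and 11.68 in wild-type and 10.16, 10.22 and 10.41 in knockout on its brightest probe, so that knockout signal was 44.3% of wild-type (log2 difference -1.17, SE 0.179, adjusted p = 0.00946). The next 2 probes by brightness gave -1.22 (adjusted p = 0.0334) and -1.26 (adjusted p = 0.0265), and 2 dim probes gave 0.23 and 0.02. The brightest probe missed the threshold in 5 of 15 alternatives, among them those without knockout replicate 1 (adjusted p = 0.0719) or 2 (adjusted p = 0.0724). Whether these probes fall inside the deleted sequence was not examined, so the remaining signal does not check the labels. The first principal component placed wild-type replicate 3 farthest from the knockout arrays (-51.4, against -26.2 and -5.90 for the other wild-type arrays and 23.6 to 33.6 for knockout). Knockout replicate 1 had a summed lens marker intensity of 18398.2, against 406.1 to 3491.6 on the other arrays, so the Il18 and Txnip values are also given without these 2 arrays. Summed over 5 rod markers, the background-subtracted intensity was 54275 to 80192 on the 6 arrays, so that retina-defining transcripts were bright on every array.

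Il18 signal was higher on every knockout array than on any wild-type array, by 1 of its 2 probes. On ILMN_1236517, annotated to the RefSeq mRNA, the raw intensity was 151.2, 150.8 and 118.3 in wild-type replicates 1 to 3. It was 340.9, 373.1 and 432.9 in knockout replicates 1 to 3. The groups did not overlap, and all 6 arrays detected the probe. After normalization the wild-type mean was 6.52 ± 0.388 on the log2 scale (SD, n = 3) and the knockout mean 8.39 ± 0.0796 (SD, n = 3). The difference was 1.87 (SE 0.216), or 3.66-fold, which ranked 18 among the increases of all tested probes. On the background-subtracted intensities that the authors deposited, without log or offset, the knockout mean was 4.31 times the wild-type mean. Without wild-type replicate 3 and knockout replicate 1 the difference was 1.63. Over all 15 alternative settings it ran from 1.45 to 2.12.

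The second Il18 probe, ILMN_1240661, is annotated to a cDNA clone entry and did not show the difference. Its raw intensity was 77.4, 87.9 and 74.9 in wild-type and 74.2, 73.3 and 81.8 in knockout, all close to the array background. It was detected on 2 of 3 wild-type and 3 of 3 knockout arrays. The groups overlapped, and the log2 difference was 0.06 (SE 0.183). Background-subtracted intensity on this probe was 8.2 to 19.5 on the 6 arrays. Which transcripts of Il18 each probe reads is not known here.

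**Figure D1:**
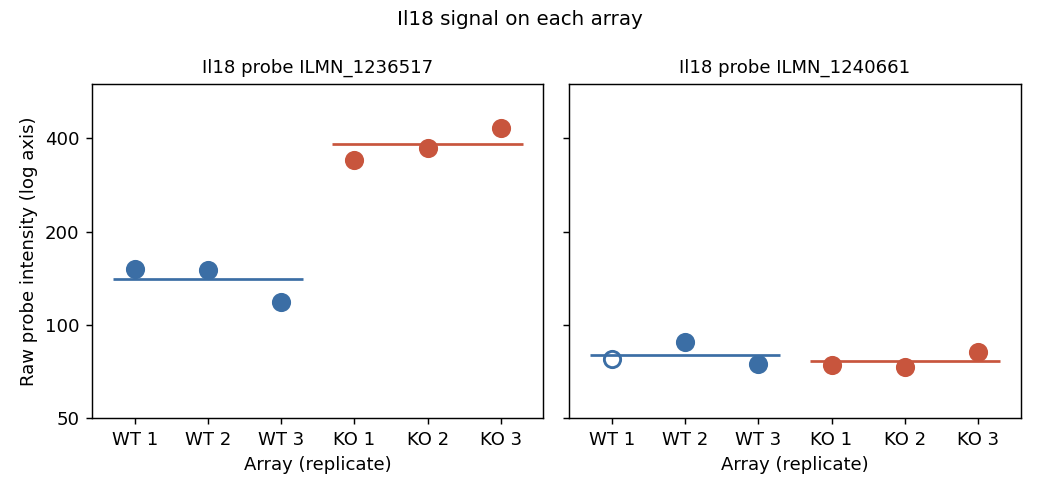
Raw intensity (log axis) of both Il18 probes on each of the 6 arrays, with wild-type (WT) in blue and knockout (KO) in red. Filled points were detected, the open point was not, and horizontal lines are group means. On ILMN_1236517 the knockout arrays lie at 340.9 to 432.9 and the wild-type arrays at 118.3 to 151.2, while on ILMN_1240661 all arrays lie between 73.3 and 87.9.

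Most other members were at background in retina. Of the 19 probes, 5 entered the test, from 4 genes (Il18, Il18bp, Casp1 and Casp4). The other 14 were dim, with raw intensities of 49.6 to 79.9, and 13 were detected on 0 arrays. The probes that entered are not all members, and a probe that passed through 1 group alone had to differ. Of the 5, 1 was called, where 2.18% of all tested probes were, and 2 had groups that did not overlap, where 18.1% of tested probes did. The members were selected on this contrast, so nothing is read from these counts. Per group, the 19 probes gave 13 detections of 57 possible in wild-type and 12 of 57 in knockout.

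Among the genes that act on IL-18 outside the cell, only Il18bp was measurable. Il18bp encodes a secreted protein that binds IL-18 and keeps it from its receptor. Its probe was detected on all 6 arrays, with log2 signals of 5.64, 5.34 and 5.38 in wild-type and 5.92, 5.66 and 5.21 in knockout. Knockout replicate 3 was the lowest and knockout replicate 1 the highest of the 6, so the groups overlapped. The difference was 0.15 (SE 0.216). Il18r1, the ligand-binding chain of the IL-18 receptor, had 3 probes and 0 detections in 18 measurements, with raw intensities of 49.6 to 79.9. Its partner chain Il18rap, which is not one of the 9 genes, was also detected on 0 arrays.

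Of the interleukin-1 members, Il1b was not detectable at the sensitivity of these arrays and Il1rn had 1 detection. Il1b, the other main cytokine cut by caspase-1, had 1 probe with raw intensities of 57.8, 60.1 and 64.4 in wild-type and 55.2, 51.3 and 63.8 in knockout. None of its 6 detection p-values was under 0.177. Il1rn, a secreted antagonist that occupies the IL-1 receptor, had 4 probes and 1 detection in 24 measurements. That detection was on knockout replicate 3, at a detection p of 0.0353. The differences of the 4 Il1rn probes ran from -0.11 to 0.19 on the log2 scale.

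The sensor and adaptor were likewise not detected. Nlrp3, which assembles the inflammasome in response to ion fluxes and crystals, had 2 probes and 0 detections in 12 measurements, at raw intensities of 51.8 to 74.7. Pycard had 2 probes and 0 detections in 12, at 57.6 to 78.5. A signal at background does not show that the transcripts are absent, only that these probes did not separate them from the negative controls.

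Of the caspases, Casp1 signal was slightly lower in knockout and Casp4 did not separate the groups. Casp1 was detected on all 3 wild-type arrays and on 0 knockout arrays, with raw intensities of 80.9, 88.5 and 77.8 against 67.4, 66.4 and 73.2. The groups did not overlap, but all values lay close to background. After normalization the wild-type mean was 5.04 ± 0.173 on the log2 scale (SD, n = 3) and the knockout mean 4.69 ± 0.0642 (SD, n = 3). The dimmest signal that each knockout array could detect was taken as a limit where it was higher than the probe's own. In this normalization the Casp1 wild-type mean was 1.2-fold above that limit, which takes no account of sampling error. The probe entered the test through wild-type arrays alone. The fitted difference was -0.35 (SE 0.168), which did not pass the threshold, and over the 10 alternative settings that kept the probe it ran from -0.38 to -0.16. Casp4, the mouse caspase that binds bacterial lipopolysaccharide in the cytosol, had 3 probes. Its brightest was detected on 2 of 3 arrays of each group and differed by -0.05 (SE 0.236), with wild-type replicate 1 the highest array at 5.41 and wild-type replicate 2 the lowest at 4.69. Its other probes had 0 detections.

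**Figure D2:**
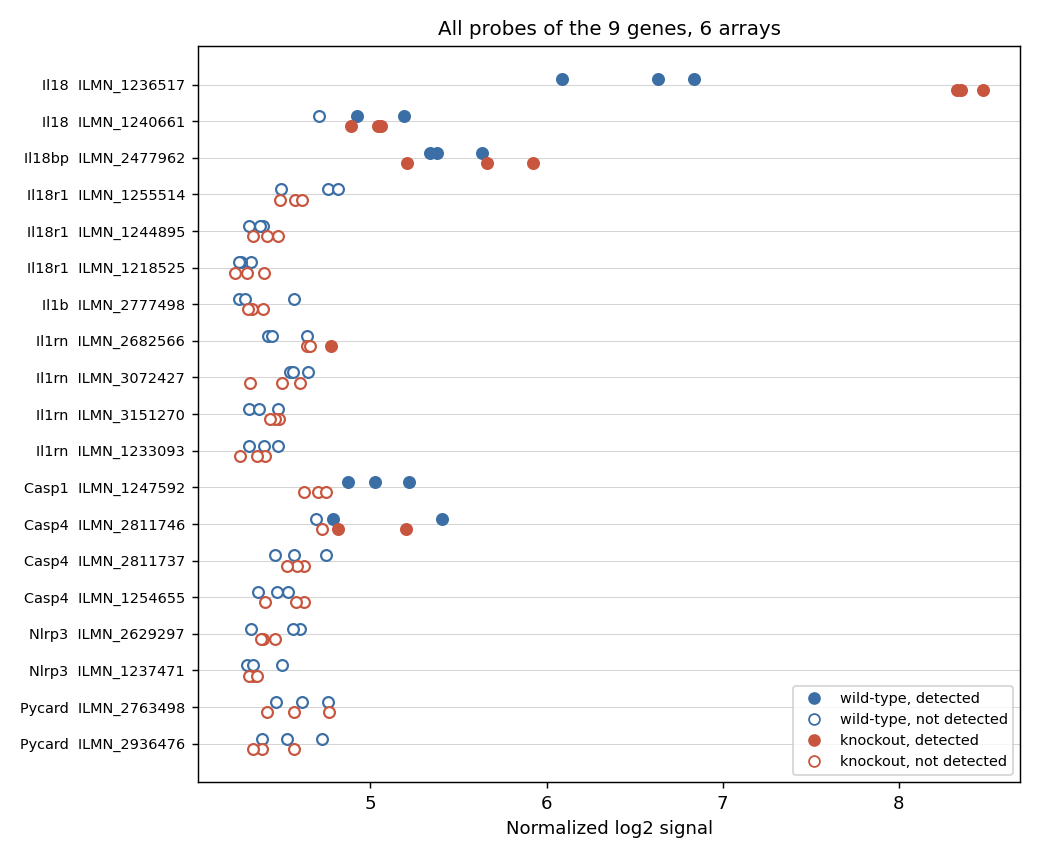
Normalized log2 signal of all 19 probes of the 9 genes, 1 row per probe, with 3 wild-type points (blue) above 3 knockout points (red). Filled points were detected on that array and open points were not. The groups of ILMN_1236517 (Il18) and of the Casp1 probe do not overlap among the 5 tested probes, and most other rows hold open points only.

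Casp1 is expressed by microglia and macrophages, among other cells, and most markers of these cells did not pass the test. Of 16 markers on the array 14 were tested and 2 were called, both lower, where 2.18% of all tested probes were called. By sign 13 of the 16 were lower and 3 higher. The 2 called were Fcrls, a microglial Fc receptor-like gene, and the lysozyme Lyz2. Fcrls was detected on 0 knockout arrays and entered the test through wild-type arrays alone. Its wild-type mean was 6.08-fold above the limit set by the same rule as for Casp1. The adjusted p of its limma fit, 0.000812, rests on knockout values at background. Lyz2, detected on 1 knockout array, was at -0.91 (SE 0.162, adjusted p = 0.0224). Its knockout values too lay at or near background, with detection p-values of 0.146, 0.156 and 0.0449. The summed background-subtracted intensity of the list was 1108 to 1684.2 in wild-type and 726.5 to 1130.2 in knockout, so the groups overlapped. By the median log2 signal of the list they did not, at 5.45 to 5.60 in wild-type and 5.12 to 5.20 in knockout. Itgam was detected on 0 arrays. Siglech and P2ry12, 2 of the 3 markers higher in sign, were at 0.53 (adjusted p = 0.216) and 0.28 (adjusted p = 0.571), both close to background. Of the uncalled lower markers, Trem2 was at -0.76 (adjusted p = 0.0547), Cx3cr1 at -0.76 (adjusted p = 0.283) and C1qb at -0.68 (adjusted p = 0.174). The groups of these 3 did not overlap, nor did those of Siglech, Fcrls and Lyz2. C1qa at -0.57 (adjusted p = 0.28) and Csf1r at -0.24 (adjusted p = 0.625) also had groups that did not overlap. Of all tested probes 18.1% had such groups. In bulk retina fewer cells and less RNA per cell cannot be told apart, and the part of microglia in the Casp1 and Il18 values was not tested. Markers of Müller glia, rods, pigment epithelium, endothelium, erythrocytes and lens gave 0 calls, although all 6 erythrocyte markers were higher in sign. Of 7 neutrophil markers 6 were detected on 0 arrays, S100a8 and S100a9 among them.

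The other genes of the pathway gave 0 calls in 4 lists by limma, where 2.90% of all named genes tested had a called probe. These lists were also chosen with earlier results known. Of 14 further interleukin-1 family ligands and receptors, 9 were on the array under these symbols, 4 were tested and 0 passed, with 1 of 6 tested probes at an unadjusted p under 0.05, a level that 2340 of all 19921 tested probes (11.7%) reached. Il33, a nuclear alarmin cytokine found in Müller glia, was at 7.81, 7.86 and 7.52 in wild-type and 6.92, 7.18 and 7.31 in knockout. These groups did not overlap, and Il33 differed by -0.59 (SE 0.185, adjusted p = 0.222). Il1rl2, Il1rap and Il1r1, which are receptor chains of the family, differed by 0.15, 0.09 and -0.03. Il1a, the other founding IL-1 cytokine, was detected on 0 arrays. The 4 genes had a median difference of 0.03, against 0.01 over 11089 named genes tested.

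Among 21 inflammasome sensors, regulators and pyroptosis genes, 18 were on the array, 5 were tested and 0 passed, with 2 of 7 tested probes at an unadjusted p under 0.05, against 11.7% of all tested probes. Both of those probes belong to Txnip, a thioredoxin-binding protein induced by glucose that has been linked to NLRP3 activation. On its brighter probe the log2 signal was 9.67, 9.62 and 8.72 in wild-type and 8.64, 8.49 and 8.0 in knockout. Wild-type replicate 3 lay beside the knockout arrays and the other wild-type arrays stood well above them. The difference was -0.96 (SE 0.288, adjusted p = 0.199), with the second probe at -0.82 (SE 0.295, adjusted p = 0.308). Without wild-type replicate 3 Txnip passed on both probes, at -1.28 (adjusted p = 0.023) and -1.20 (adjusted p = 0.00832). Without both arrays that stood apart the values were -1.41 (adjusted p = 0.0347) and -1.26 (adjusted p = 0.0314). Over all 15 settings the adjusted p of the brighter probe ran from 0.023 to 0.52.

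The remaining tested genes of that list did not pass either. Panx1, a channel that releases ATP from stressed cells, differed by 0.29 (SE 0.256) on its brighter probe and by -0.08 (SE 0.22) on the other. Casp8 differed by -0.17 (SE 0.22) and Gsdmd, the pore-forming protein that caspase-1 cuts, by -0.06 (SE 0.22). Gsdme, a related pore-former, was measured well above background and differed by -0.06 (SE 0.259). The median of the list was -0.06. The sensors Nlrp1a, Nlrp6, Nlrp12, Nlrc4 and Mefv and the ATP receptor P2rx7 were among 10 genes detected on 0 arrays.

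Of 24 genes that signal from Toll and IL-1 receptors to NF-kB, 21 were on the array, 17 were tested and 0 passed, with 3 of 25 tested probes at an unadjusted p under 0.05, a share near the 11.7% of all tested probes. Nfkbiz, an atypical IκB protein induced by IL-1 and Toll signals, was at 6.96, 6.90 and 6.87 in wild-type and 7.53, 7.58 and 7.24 in knockout. These groups did not overlap, and Nfkbiz differed by 0.54 (SE 0.169, adjusted p = 0.222). Nfkbia, the main NF-kB inhibitor and itself a target of NF-kB, differed by 0.46 (SE 0.181, adjusted p = 0.364). Tab3, an adaptor of the kinase TAK1, was at -0.45 (adjusted p = 0.37) and the deubiquitinase Tnfaip3 at 0.40 (adjusted p = 0.531). Groups did not overlap on 4 of 25 tested probes, those of Nfkbia and Tab3 among them, against 18.1% of all tested probes. Myd88, the adaptor used by both receptor families, was bright and differed by 0.10 (SE 0.216). The list had a median of 0.06, with 10 genes higher and 7 lower in sign.

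Of 14 cytokine output genes, which respond to IL-1 or IL-18 in many tissues, all were on the array, 4 were tested and 0 passed, with 2 of 4 tested probes at an unadjusted p under 0.05, against 11.7% of all tested probes. Vcam1, an adhesion molecule of endothelium and glia, was at 9.65, 9.57 and 9.77 in wild-type and 9.14, 9.09 and 8.68 in knockout. It differed by -0.69 (SE 0.185, adjusted p = 0.135), with groups that did not overlap. Socs3, a feedback inhibitor of cytokine signalling, was at 6.25, 6.12 and 5.62 in wild-type and 6.53, 6.65 and 6.98 in knockout. It differed by 0.72 (SE 0.219, adjusted p = 0.204), and here too the groups did not overlap. Icam1 differed by -0.15 and Nos2 by 0.07. Ifng, the cytokine that IL-18 induces in lymphocytes, was detected on 0 arrays, as were Il6, Ccl2, Cxcl10 and 5 others of the list.

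**Figure D3:**
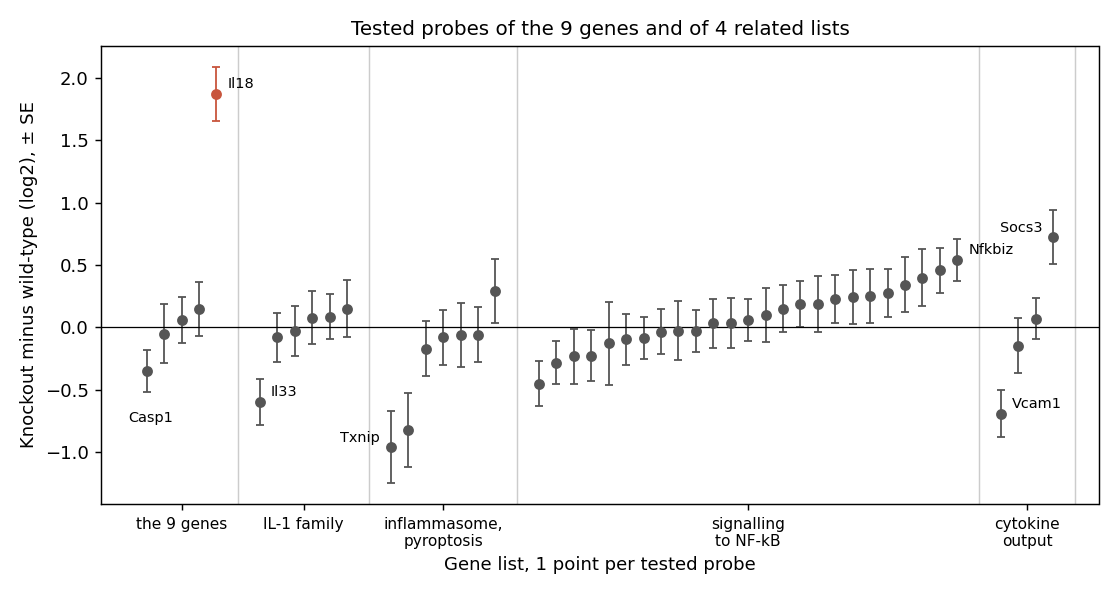
Knockout minus wild-type difference (log2, error bars are the SE of the fit) of every tested probe of the 9 genes and of the 4 related lists, 1 point per probe. The red point passed an adjusted p of 0.05 by limma and grey points did not. Il18, which was selected for its difference, is at 1.87 and the other points lie between -0.96 and 0.72.

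The genes whose signal over the 6 arrays was most like that of ILMN_1236517 were Kcnk1, Serpina3n, Rida, Asic3, Vip, Hmgn2, Spag1 and Gpr19. Pearson's r was 0.999 for Kcnk1, a potassium channel, and 0.998 for Serpina3n, a protease inhibitor of reactive glia, and the others lay between 0.992 and 0.997. These are descriptions over 6 points that fall into the 2 groups. All 8 were lowest on wild-type replicate 3, as Il18 was. The genes were picked for their r with Il18 over these arrays, so nothing is read from this shared pattern. The sizes differed: Serpina3n was higher in knockout by 3.8, Spag1 by 1.74, Vip by 1.26 and Kcnk1 by 0.96.

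**Figure D4:**
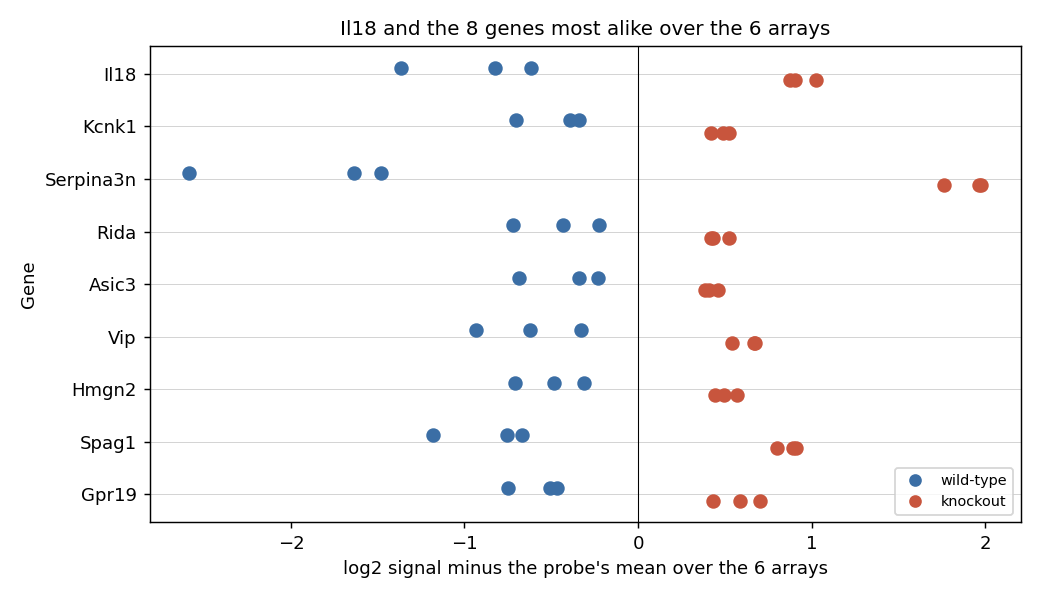
Log2 signal of Il18 (ILMN_1236517) and of the 8 most similar genes, each minus the mean of its own probe over the 6 arrays. Blue points are wild-type and red points knockout arrays. In every row the 3 wild-type points lie to the left of the 3 knockout points, with the widest gap for Serpina3n. The genes were picked for this likeness.

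Il18 lies on chromosome 9, and its measured neighbours there gave 0 calls of higher signal in knockout. Among the 5 nearest genes with a tested probe on each side, by order in the reference gene table, 1 of 10 had a called probe, where 2.90% of named genes did. This was Dixdc1, a Wnt signalling protein, on a probe annotated to a cDNA clone entry, which differed by -2.69 (SE 0.172, adjusted p = 7.83e-05) and was detected on 1 of 3 knockout arrays, so that its knockout level lay at or near background. Its other probe was at -0.09 (SE 0.204). Dlat, a subunit of the pyruvate dehydrogenase complex, was at -0.83 (SE 0.184, adjusted p = 0.0623) with groups that did not overlap. The gene next to Il18 on one side, the carotenoid-cleaving enzyme Bco2, differed by 0.09 (SE 0.212). On the other side Sdhd, a subunit of succinate dehydrogenase, was the nearest gene with a tested probe and differed by 0.22 (SE 0.191). The probes of Drd2, Ttc12, Ncam1, Pts, Timm8b and Nkapd1 differed by -0.57 to 0.19, with none called.

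**Figure D5:**
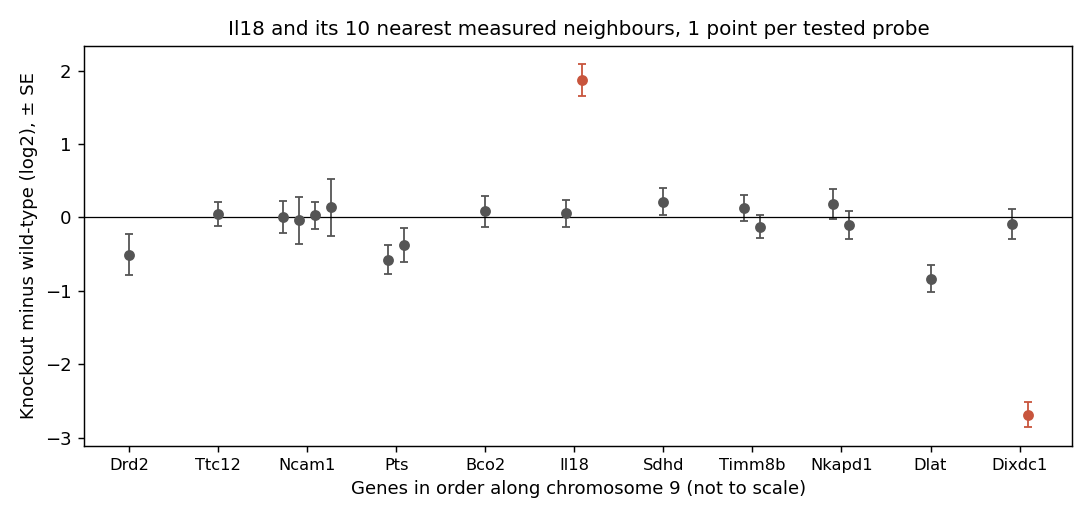
Knockout minus wild-type difference (log2, error bars are the SE of the fit) for Il18 and its 10 nearest measured neighbours in their order along chromosome 9, with spacing not to scale and 1 point per tested probe. Red points passed an adjusted p of 0.05. Only 1 Il18 probe at 1.87 and 1 Dixdc1 probe at -2.69 are red. Il18 was selected for its difference, so nothing is read from its colour.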

How the data were processed

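Per the file headers, the deposited non-normalized table holds linear intensities. Each intensity comes with a detection p-value from the authors. They also deposited intensities named normalized, which equal the first table minus 1 constant per array (57.2 to 69.1), and a series table that differs from these in 0 values. GenomeStudio is named in the submitters' processing notes, without a version.

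From the non-normalized table, neqc of limma 3.58.1 (R 4.3.3) was used for normexp background correction from the detection p-values, an offset of 16, quantile normalization and log2. The offset draws changes of dim probes towards 0. Each probe was its own feature, and probes with a detection p under 0.05 on at least 3 of 6 arrays were tested with lmFit and eBayes (2-sided, group only, Benjamini-Hochberg over all). The fit was tested on simulated data. Symbols are those of the platform annotation, and 34807 probes matched the reference table (GRCm38.p6) with 0 symbols changed.

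Named were all member probes, all tested Vldlr probes, up to 4 genes of each pathway list by smallest p, 8 genes most correlated with Il18, and 5 neighbours on each side. Gsdme, Myd88, Siglech, P2ry12, Trem2, Cx3cr1, C1qb, C1qa and Csf1r, and genes listed at background, were named after their values were seen. Alternatives were other normalizations, offsets, filters and variance models, 1 probe per gene, arrays left out, and the title number as a block. A slide block was not run, since the column names give no slide. Members and lists were chosen with earlier results of these data known. Figures were drawn with matplotlib 3.10.9.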

Additional observations from a re-analysis of the deposited data

How the results depend on the processing

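Under 15 alternatives the difference of the Il18 probe ILMN_1236517 ran from 1.45 (quantile normalization without background correction) to 2.12 (the authors' normalized table with values under 16 set to 16). The gene was selected on this contrast, so nothing is read from its 1 call in each. The uncalled Il18bp probe, the second Il18 probe and the brightest Casp4 probe changed sign between alternatives (-0.05 to 0.33, -0.09 to 0.19 and -0.28 to 0.18). The count of 435 called probes rose to at most 475 (trended and robust variance) and fell to 223 in the authors' table with that floor, to 212 without wild-type replicate 3 and knockout replicate 1, and to 202 (without wild-type replicate 2) to 382 (without wild-type replicate 3) with 1 array left out. Of the calls 29.9% were higher in knockout, against 14.6% without knockout replicate 2, 16.9% without knockout replicate 1 and 19.1% with the title number as block. Vldlr differed by -1.148 in the authors' table with the floor (adjusted p = 0.125) and by -1.001 without both arrays (adjusted p = 0.0864), both past the threshold no longer. With 1 array left out it ran from -1.255 to -1.058, and it missed the threshold without knockout replicate 1 (adjusted p = 0.0719) or 2 (adjusted p = 0.0724). The inflammasome list had 1 called gene, Txnip, without both arrays, and 0 to 1 with 1 array left out (1 without wild-type replicate 3). The other pathway lists had 0 in all 15. The causes of these changes were not tested. Settings with arrays left out also had fewer samples. The labels do not say whether numbers in the sample titles pair the samples. In their deviations from group means the same-numbered pairs correlated at -0.0172 and -0.275, and the other pairs at -0.275 to 0.365. So few same-numbered pairs cannot decide whether the numbers mark a pairing. With the title number as replicate block 282 probes were called, Vldlr was at -1.004 (adjusted p = 0.113), and the inflammasome list had 1 called gene. Wild-type replicate 3 and knockout replicate 1 share their number with no array of the other group. The block therefore takes each difference from the remaining arrays alone, as the setting without both arrays does, and is not a separate check. Dim signal close to the negative controls limits what 14 of the 19 member probes can show.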
